A study of Drosophila melanogaster with 2 samples.

Results

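The genes described here act in insulin signalling, TOR signalling and translation control, and were followed through the Hand-GFP peak lists of the Drosophila embryo: Ilp6, InR, Akt, Tor, S6k, foxo, Thor, Lk6 and larp. They are 9 of 13945 protein-coding genes of the Ensembl annotation. They were matched by symbol, and Tor was matched through its current symbol mTor. A gene was given every peak whose summit, the position of highest signal, lay in its body or within 2 kb of it. The set was chosen by the peaks and signals of these same lists, Lk6 and larp being among the strongest of all, so the presence and strength of peaks at the 9 genes is a description and carries no test.

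The assay was chromatin immunoprecipitation followed by sequencing, which recovers DNA fragments attached to a chosen protein. The protein was Hand, a basic helix-loop-helix transcription factor of the heart, pericardial cells, lymph gland and visceral muscle, carried as a fusion with GFP at its C-terminal end by a stable transgenic line and pulled down with an antibody against GFP. Embryos of both sexes, aged 6 to 24 hours, were used whole, and their chromatin was sheared by sonication to 200 to 800 bp. There was 1 group, with 2 biological replicates labelled 2 and 3, both given by the labels as that line and that age, with no treatment named. No control library or other genotype was among the samples, so no condition could be compared with another. In whole embryos the number of cells with a protein at a site and its occupancy in each of them cannot be told apart.

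Insulin-like peptides bind the insulin receptor, which acts through a lipid kinase and Akt to hold the transcription factor foxo out of the nucleus and to raise the activity of the kinase TOR. TOR in turn drives S6 kinase and keeps the translation repressor 4E-BP, the product of Thor, away from the cap-binding factor eIF4E, so that fed cells grow and make protein. When the pathway is low, foxo enters the nucleus and raises the transcription of InR and Thor, and in the adult fly heart this branch is known for its part in the decline of heart function with age.

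The lists give each peak a signal, the authors' peak caller's own value, used here to describe and rank peaks. Signals are not rescaled between lists, so values of the 2 replicates set side by side also hold the difference between their lists. A thresholded list of 3310 peaks held the strongest 3310 of a pooled list of 30000, with signals from 92.55 to 2061 and a median of 135.8. By its label the thresholded list was cut by IDR, a measure of reproducibility between replicates. The pooled list is labelled as peaks and background, so its weaker entries, called peaks here, can be background. Each replicate had a list of 30000 as well, and signals ran lower in replicate 2 (median 17.99) than in replicate 3 (median 23.8). In the 90 kb centred on the Hand gene the library labelled replicate 2 listed 4 peaks and the library labelled replicate 3 listed 36. Whether embryos of the tagged line went into the former library is therefore uncertain, and its signals, with the part they have in the pooled signals, are Hand-GFP signals by label only. Peaks of the 9 genes are given in each replicate, and counts of genes also from each replicate's strongest 3310 peaks. Read depth is unknown.

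Thresholded peaks were found at 6 of the 9 genes, InR with 6, larp with 4, Lk6 with 2, and foxo, Thor and Ilp6 with 1 each, which makes 15. Akt, Tor and S6k had none. Over all protein-coding genes, 25.7% had a thresholded summit. Since the genes were chosen with these peaks known, nothing is read from the comparison. Among the 3310 strongest peaks of replicate 3 alone, 5 of the 9 genes had a summit, with Ilp6 falling out, against 26.3% of all genes. Among the 3310 strongest of replicate 2, 6 had one, with S6k coming in and Ilp6 falling out, against 24.5% of all genes. Genes with a thresholded summit were long, with a median of 3790 bp against 1899 bp for genes without, and InR (49074 bp), foxo (31034 bp), larp (18279 bp) and Lk6 (13527 bp) were all longer than either. So were the 3 genes without a thresholded summit, S6k (13383 bp), Tor (8718 bp) and Akt (6443 bp). Ilp6 (3166 bp) was shorter than the 3790 bp median and Thor (1179 bp) shorter than both medians.

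The DNA under the strongest thresholded peak of each of these 6 genes is shown because the results turn on where those summits lie and on which factor-binding words they hold. The sequences are from the RefSeq Release 6 assembly, which has the dm6 coordinates of the files, and are written 5′ to 3′ on the strand of the gene, within 50 bp of the summit. Capitals mark a forkhead word, the core recognised by foxo and its relatives (ATAAACA on either strand, also with G as its first letter, T as its sixth, or both), or an E-box, CANNTG, the word recognised by factors of Hand's class. The Ilp6 window is chrX:2329462-2329562 (dm6, minus strand), the InR window chr3R:21590769-21590869 (minus), the foxo window chr3R:14056577-14056677 (plus), the Lk6 window chr3R:11761010-11761110 (minus) and the larp window chr3R:28326536-28326636 (minus). For Thor the part before the transcription start site (TSS) is shown, chr2L:3478397-3478433 (plus).
Ilp6: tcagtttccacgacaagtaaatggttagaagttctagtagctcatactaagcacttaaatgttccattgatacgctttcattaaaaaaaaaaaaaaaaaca
InR: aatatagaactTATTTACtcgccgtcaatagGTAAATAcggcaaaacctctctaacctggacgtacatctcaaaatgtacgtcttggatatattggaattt
foxo: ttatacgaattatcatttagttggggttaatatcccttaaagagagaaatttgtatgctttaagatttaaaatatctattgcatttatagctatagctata
Thor: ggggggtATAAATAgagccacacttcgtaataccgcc
Lk6: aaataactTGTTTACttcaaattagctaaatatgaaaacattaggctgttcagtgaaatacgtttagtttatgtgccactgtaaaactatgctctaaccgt
larp: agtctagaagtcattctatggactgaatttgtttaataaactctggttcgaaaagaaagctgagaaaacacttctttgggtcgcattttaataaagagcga

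None of the 6 stretches held an E-box. Forkhead words stood in the InR, Thor and Lk6 stretches and not in those of foxo, larp or Ilp6. The longest unbroken run of A and T was 20 bases in the Ilp6 stretch and 11 in those of foxo and larp.

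Ilp6 (FBgn0044047, X, 2331493 to 2334658, minus strand) codes for an insulin-like peptide made outside the brain, chiefly in the fat body. Its only thresholded peak (X, 2329294 to 2329729) had a pooled signal of 93.48, rank 3236 of 3310, close to the lowest signal of the list. The signal was 29.72 in replicate 2 (rank 5281 of that list) and 58.5 in replicate 3 (rank 3490), so the peak lay outside the 3310 strongest of both. The summit stood 1981 bp past the end of Ilp6 and in an intron of Raf, which codes for a kinase of the MAP kinase cascade. The gene body of CG2854 was nearer, at 571 bp, and CG2854 also had the nearest TSS, at 2384 bp. The 5 weaker pooled peaks in Ilp6 or within 2 kb of it had signals from 26.32 to 42.67. The strongest of them stood 492 bp downstream of an Ilp6 TSS, with 18.53 in replicate 2 and 23.04 in replicate 3.

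InR (FBgn0283499, 3R, 21570248 to 21619321, minus strand) codes for the insulin receptor and had 6 thresholded peaks, a number that 44 genes (0.316% of all) reached or passed. All 6 summits lay before the start codon, in the long 5′ part of the gene that holds 4 TSSs. A peak 33 bp downstream of the outermost TSS (21619070 to 21619505) had a pooled signal of 173.7, with 66.1 in replicate 2 and 105.8 in replicate 3. Another stood 486 bp downstream of the next TSS, with 93.57 pooled, 28.36 in replicate 2 and 70.51 in replicate 3, the weakest of the 6. Both of these also lay within 2 kb of E2f1, which codes for a cell cycle transcription factor, though E2f1 was farther away (1016 bp and 1754 bp).

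In the first long intron of InR followed 3 more peaks. Their distances from the nearest InR TSS were 2556 bp, 4014 bp and 5560 bp, and their pooled signals were higher with that distance, at 121.1, 140.4 and 165.7. Replicate 2 had 38.22, 67.96 and 70.49 for them and replicate 3 had 74.75, 76.21 and 100.9, so the order was the same in each replicate. The strongest InR peak (21590601 to 21591036) was separate from this group, much farther along the gene, 628 bp upstream of the innermost TSS. It had 207.3 in the pooled list (rank 806), 67.2 in replicate 2 (rank 1003) and 142.8 in replicate 3 (rank 724). In replicate 2 it was not the strongest of the 6: the peaks at 4014 bp and 5560 bp had higher signals there. The sequence printed for InR is that of this peak, and its 2 forkhead words stood 16 bp and 36 bp from the summit, 644 bp and 664 bp upstream of the TSS. InR also held 23 weaker pooled peaks, with signals from 24.79 to 71.42, of which 8 had a summit within 100 bp in both replicates and 3 in neither. The strongest of the 23 lay 483 bp downstream of the same innermost TSS, with 34.32 in replicate 2 and 45.14 in replicate 3.

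The kinases Akt, Tor and S6k, which carry the signal from the receptor to growth, had pooled peaks only below the threshold. Akt (FBgn0010379, 3R, 16099228 to 16105670, plus strand) had its strongest at 75.8 (rank 4717), in an intron 592 bp downstream of a TSS, with 29.1 in replicate 2 and 47.54 in replicate 3. S6k (FBgn0283472, 3L, 5797549 to 5810931, minus strand), the kinase of ribosomal protein S6, had its strongest at 84.97 (rank 3867), 42 bp downstream of its TSS. That peak had 37.48 in replicate 2, where rank 3250 put it inside the 3310 strongest, and 48.14 in replicate 3, where rank 4903 did not. Tor (mTor, FBgn0021796, 2L, 13004480 to 13013197, plus strand), the kinase at the centre of the pathway, had a single pooled peak 123 bp upstream of its TSS, with 48.05 (rank 10212). Replicate 3 listed 20.67 there and replicate 2 had no summit within 100 bp. All 9 genes thus had a summit in the pooled list, which by its label includes background, as 74.4% of all genes did. The nearest thresholded summit was 62607 bp from Akt, 22172 bp from Tor and 26355 bp from S6k.

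foxo (FBgn0038197, 3R, 14056945 to 14087978, plus strand) codes for the forkhead factor that insulin signalling restrains. Its thresholded peak (14056409 to 14056844) lay 318 bp upstream of the outermost TSS, with 312.4 pooled (rank 350), 108.6 in replicate 2 (rank 384) and 203.1 in replicate 3 (rank 367). No other gene lay within 2 kb of it. The 15 weaker peaks of foxo reached 67.62, and 11 of them were in introns. Farther upstream than 2 kb lay 3 more thresholded peaks, in intergenic DNA whose nearest TSS was that of foxo, and were not counted among the 15. The strongest stood 3353 bp upstream (14053458 to 14053729), with 511.8 pooled (rank 131), 165.3 in replicate 2 (rank 149) and 337.2 in replicate 3 (rank 133), above the peak at the promoter in every list. Another, 4600 bp upstream, had 273.3, with 86.96 and 185.0 in replicates 2 and 3. The last, 7885 bp upstream, had 93.4, with 29.94 and 60.67. The 4 peaks upstream of foxo held the same order of signal in both replicates. The 2-kb limit thus left out the strongest peak that lies nearest to foxo.

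Thor (FBgn0261560, 2L, 3478434 to 3479612, plus strand) codes for 4E-BP and is a known target of foxo. Its thresholded peak (3478229 to 3478664) had its summit 13 bp downstream of the TSS, with 187.0 pooled (rank 955), 75.25 in replicate 2 (rank 796) and 98.28 in replicate 3 (rank 1403). The forkhead word printed for Thor lies 27 bp upstream of the TSS and, with the t before it, has the letters of a TATA box, the element that places the start of transcription. The foxo word GTAAACA occurred once in this peak, 85 bp from the summit and 10 bp downstream of the second TSS. Farther upstream of Thor the signals were lower. A peak 1018 bp upstream was just below the threshold, with 90.08 pooled (rank 3477), 35.12 in replicate 2 and 55.71 in replicate 3. A thresholded peak 2182 bp upstream (3476034 to 3476469), outside the 2-kb limit, had 95.33 pooled and 85.08 in replicate 3, and no summit within 100 bp in replicate 2. Its window held the word GTAAACA as well.

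Lk6 (FBgn0017581, 3R, 11750931 to 11764457, minus strand) codes for the fly relative of the Mnk kinases, which phosphorylate eIF4E, and it had the strongest peak of the 9 genes. That peak (11760875 to 11761240) had 1125 pooled (rank 11), 324.5 in replicate 2 (rank 18) and 809.2 in replicate 3 (rank 10). It was high in every list, and 18 genes had a stronger one. The summit lay in an intron of the longer transcript, 981 bp upstream of the TSS of the shorter one, with no other gene within 2 kb. The word TGTTTAC in the printed sequence is GTAAACA read on the other strand, 39 bp from the summit. The other Lk6 peak (11764181 to 11764616) was at the outer promoter, 58 bp downstream of the TSS, with 181.1 pooled, 80.96 in replicate 2 and 99.48 in replicate 3. The gene l(3)neo38 lay 639 bp from it. At the inner TSS itself the pooled list had only a weaker peak, 74 bp downstream, with 61.78, 41.74 in replicate 2 (rank 2619) and no summit within 100 bp in replicate 3.

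larp (FBgn0261618, 3R, 28318162 to 28336440, minus strand) codes for an RNA-binding protein of the La family, whose mammalian relative LARP1 acts downstream of TOR on the translation of ribosomal protein messages. Its 6 TSSs are spread along the gene, and each of its 4 thresholded peaks lay upstream of one of them. The strongest (28326428 to 28326773) was 322 bp upstream of an inner TSS, with 962.5 pooled (rank 16), 313.6 in replicate 2 (rank 22) and 648.8 in replicate 3 (rank 17), and 26 genes had a stronger peak. The next (28328910 to 28329050), 711 bp upstream of another inner TSS, was narrow, 141 bp against the usual 436 bp, with 187.3 pooled, 43.68 in replicate 2 and 128.2 in replicate 3. A peak 194 bp upstream of the second TSS had 163.0, with 39.06 and 121.4 in replicates 2 and 3, and lay 1284 bp from Gfat2, which codes for an enzyme of hexosamine synthesis. The last, 1237 bp upstream of an inner TSS, had 120.5, with 56.93 and 67.07. The order of these 3 lower peaks in replicate 3 was that of the pooled list, while in replicate 2 the peak at 1237 bp led and the one at 194 bp was lowest. At least 4 thresholded peaks were found at 144 genes (1.03% of all).

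**Figure D1:**
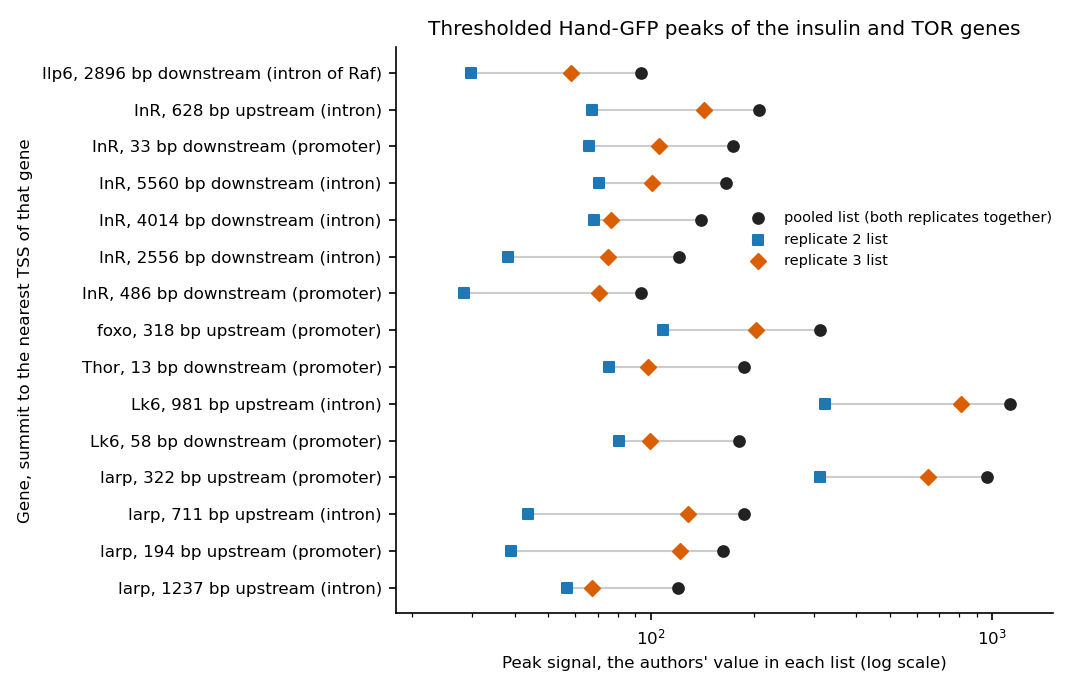
Signal (horizontal axis, log scale) of each of the 15 thresholded peaks in the pooled list (black circles), replicate 2 (blue squares) and replicate 3 (orange diamonds), 1 row a peak, labelled with its gene and the distance of its summit from the nearest TSS of that gene. The strongest peaks of Lk6 (324.5 and 809.2 in replicates 2 and 3) and larp (313.6 and 648.8) stand apart from the others. Each peak is higher in replicate 3 than in replicate 2, on values not rescaled between lists.

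**Figure D2:**
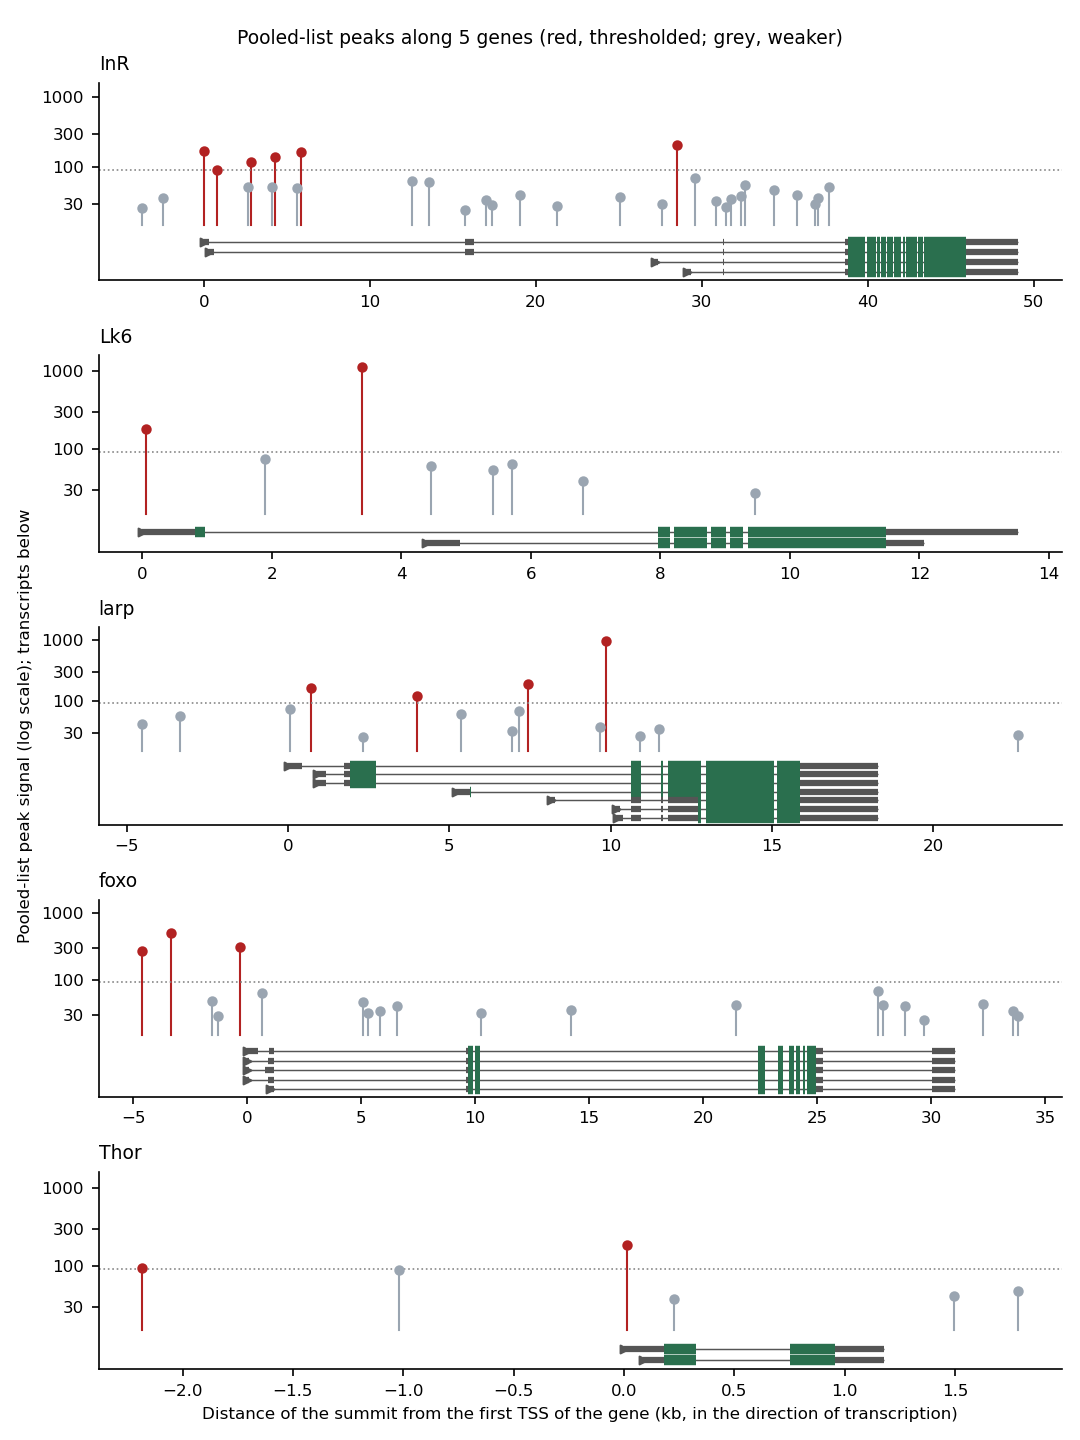
Pooled-list peaks within 5 kb of InR, Lk6, larp, foxo and Thor, as stems at the distance of the summit from the first TSS in kb (horizontal axis), with their signal on a log scale (vertical axis), above the transcripts (arrowheads, TSSs; thick grey, exons; green, coding). Red stems are thresholded and grey stems weaker, and the dotted line is the lowest thresholded signal, 92.55. The 6 InR peaks lie before the coding exons, the strongest Lk6 and larp peaks lie inside the gene ahead of an inner TSS, and foxo has its strongest peak 3353 bp upstream.

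Several features were common to the 15 peaks. All 15 had a summit within 100 bp in the full list of each replicate, as did 91.1% of the 3310, and within 50 bp 9 of the 15 did. Replicate 3 had the higher signal at each of the 15, by a ratio of 1.12 to 3.11 with a median of 1.96. Over the 3015 thresholded peaks found in both the median was 1.83 and the 5th percentile 0.984, so this held for most of the list. The stronger 1655 peaks of the list held 11 of them. At 7 of the peaks (46.7%) the summit was within 500 bp of a TSS, beside 49.6% of all thresholded summits, and at the other 8 (53.3%) it was in an intron, beside 35.3%. No summit was in an exon outside a promoter or between genes, beside 1.45% and 13.7% of all. The rule takes only summits in a gene or within 2 kb, a limit that the whole list does not have. These shares are thus partly set by the rule, which left out the intergenic peaks farther upstream of foxo and Thor. With each summit given to the gene of the nearest TSS, 7 of 18 (38.9%) were in introns. Of the 14 peaks whose nearest TSS was the gene's own, 10 (71.4%) lay inside the gene, nearest to a TSS other than the outermost. The share was 34.2% of 3247 thresholded peaks. Of the same 14, 6 (42.9%) lay upstream of such an inner TSS, beside 19.9%. The first count takes in the InR peaks 486 bp, 2556 bp, 4014 bp and 5560 bp from their nearest TSS, which lies 285 bp inside the outermost. The shares over all peaks include genes with a single TSS, which cannot be counted. The InR and larp peaks supply most of both counts and share their genes, so these are not independent cases.

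The weaker part of the lists was less steady, a contrast in part set by a threshold that is labelled as one of reproducibility. Of the 72 pooled peaks of the 9 genes under the threshold, 25 had a summit within 100 bp in both replicates, 30 in replicate 3 only, 10 in replicate 2 only and 7 in neither. Over all 26690 weaker pooled peaks, 30.1% were found in both replicates. The 72 had signals from 24.37 to 90.08 with a median of 40.99. In introns were 48 of them, a count given without a like share over all weaker peaks. Just inside the threshold were the Ilp6 peak (93.48) and the weakest InR peak (93.57), and just outside it were the Thor peak 1018 bp upstream (90.08) and the S6k promoter peak (84.97). Of the 72, 5 (6.94%) stood within 250 bp of a thresholded summit, 3 at InR, 1 at Thor and 1 at larp, and so lay beside a peak already counted. Over all 26690 weaker pooled peaks the number was 868 (3.25%). The larp one, 200 bp from the strongest larp summit, had 37.24 in the pooled list, 65.25 in replicate 2 and no summit within 100 bp in replicate 3.

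The words sought within 50 bp of the summits were about as frequent as in the list as a whole, apart by a few peaks at most in either direction. An E-box lay within 50 bp of the summit at 4 of the 15 peaks (26.7%), beside 34.7% of the 3310. The form CATCTG, bound by Hand with its partner Daughterless, was in none of the 15 windows and in 2.66% of all. Over the whole peaks it was in 2 of the 15 (13.3%, against 12.1%), the strongest InR peak and the larp peak 1237 bp upstream of a TSS, and an E-box of any form was in 12 (80.0%, against 84.2%). A forkhead word was in 4 windows (26.7%, against 23.8%), and all 4 were at InR, Thor or Lk6. Over the whole peaks it was in 7 (46.7%, against 55.9%), so the members' share was above that of the list in the windows and below it in the peaks. The word GTAAACA, which counts as a forkhead word too, was in the Lk6 window only (6.67%, against 3.9%). In whole peaks it was found at Thor and Lk6 (13.3%, against 12.8%), and in none of the 6 InR peaks. The word GATA with A or T before it and A or G after it was in 3 windows (20.0%, against 22.0%), the Mef2 word in 1 (6.67%, against 6.86%) and the DREF word TATCGATA in none (against 0.997%). The run GAGAG, read by the GAGA factor, was in 3 windows (20.0%, against 13.9%), at InR and foxo only. It was in 11 of the whole peaks (73.3%, against 50.9%), several of them at InR and so not independent. All words were sought on both strands, and a match is only a match of letters.

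Base composition varied widely among the peaks. A or T made up 46.5% to 75.2% of the 15 windows, with a median of 64.4% beside 66.3% over all. Among the windows rich in A and T were those at the foxo promoter (75.2%), Ilp6 (70.3%) and the strongest Lk6 peak (69.3%). The windows at the outer InR and Thor TSSs were poor in them, at 46.5% and 49.5%. InR windows farther from a TSS went both ways. They had 49.5% at 5560 bp and 53.5% at both 2556 bp and 486 bp, but 73.3% at 4014 bp and 64.4% at 628 bp. Over the list the median was 71.3% in the strongest 331 peaks and 61.4% in the weakest 331, and the strongest Lk6 and larp (65.3%) windows, both among the former, lay below that median.

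**Figure D3:**
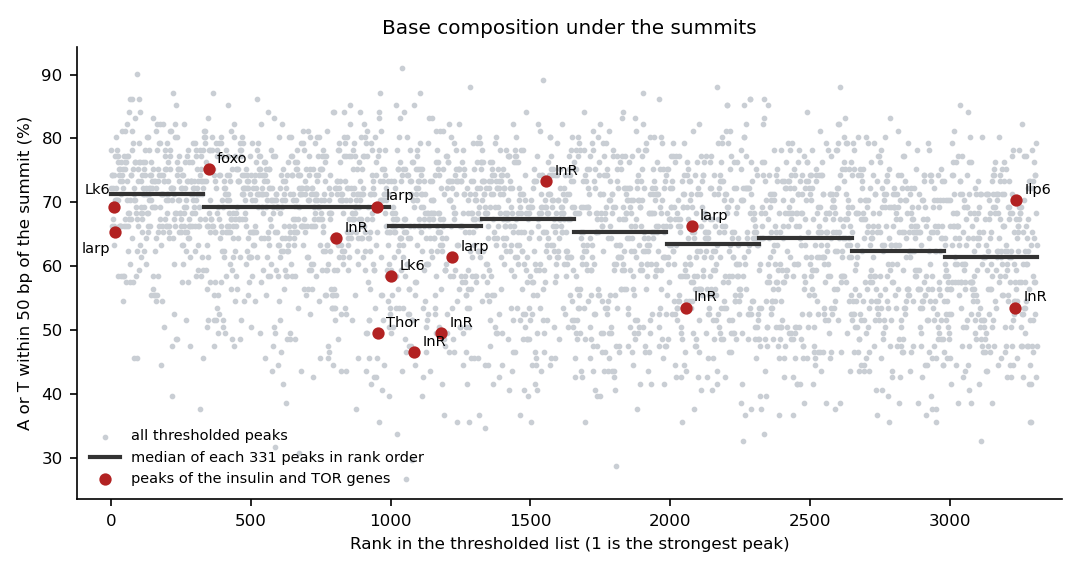
Share of A or T within 50 bp of the summit (vertical axis, %) against rank in the thresholded list (horizontal axis, 1 is the strongest), for all 3310 peaks (grey), the median of each 331 peaks in rank order (black bars) and the 15 peaks of the insulin and TOR genes (red, labelled). The medians go from 71.3% to 61.4% along the list, and the 15 peaks lie on both sides of them.

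To place the 9 genes in their pathway, 63 other genes of insulin and TOR signalling were listed by role. Thresholded summits were found at 25 of them (39.7%), again beside 25.7% of all genes. In replicate 3's strongest 3310 the number was 29 and in replicate 2's it was 26, but the counts for single roles moved more, as given with each. The median length of the 63 was 5761 bp against 2166 bp for all genes, and a longer gene takes in more summits, an effect that was not tested. With each summit given only to the gene of the nearest TSS, 18 of the 63 had one. The median strongest pooled signal was 87.54 over the 53 of the 63 with any pooled peak, beside 67.23 over all such genes.

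The ligands had least. None of the 7 other insulin-like peptide genes had a thresholded peak, 5 of them had no pooled peak at all, and none was reached by the strongest 3310 of either replicate. They are short, with a median of 823 bp, the lowest of the roles. The highest was 18539 bp, for the outputs of TOR. The PI3-kinase branch had 7956 bp and the regulators and partners of foxo 9417 bp. The best of them was Ilp8, which codes for a peptide that signals tissue damage and growth delay, with 40.24 at 12 bp from its TSS, 13.52 in replicate 2 and 30.12 in replicate 3. Ilp5 followed at 25.55, with no summit within 100 bp in replicate 2 and 20.78 in replicate 3, at a peak whose nearest TSS was that of CG43897. Of 5 secreted inhibitors and receptor adaptors, 2 had thresholded peaks, and 1, ImpL2, was reached in each replicate alone. ImpL2, whose product binds insulin-like peptides and blocks them, had 243.3 in an intron, with 70.13 and 170.5 in replicates 2 and 3. Lnk, an adaptor of the receptor, had 99.12 at its promoter, with 34.69 and 51.02, and dock, which codes for another adaptor, had 66.68, below the threshold, with no summit within 100 bp in either replicate.

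Between receptor and TOR, 4 of 6 genes of the PI3-kinase branch had thresholded peaks, and 4 in replicate 2 alone and 3 in replicate 3 alone. These were melt, which codes for a membrane adaptor of TOR and foxo (229.1, with 97.27 and 129.6 in replicates 2 and 3), Pi3K21B, the adaptor subunit of the lipid kinase (198.3, with 85.8 and 121.9), Pi3K92E, its catalytic subunit (111.0, with 48.85 and 50.86), and Pdk1, the kinase that activates Akt (149.5, with 63.24 in replicate 2 and no summit within 100 bp in replicate 3). Of the 7 genes of the TOR complexes and the TSC-Rheb switch above them, 2 had one, and neither peak was nearest to the gene itself. The count changed with the library, to 1 gene (Lst8) in replicate 2 alone and to 4 (gig, Rheb, raptor and rictor) in replicate 3 alone. That of gig, which codes for a TSC subunit, had 119.7 (32.14 and 92.44 in replicates 2 and 3) and was nearest to CG7328, and that of Rheb, which codes for the GTPase that activates TOR, had 99.46 (17.6 and 71.86) and was nearest to CG2931. The strongest pooled peaks of raptor and rictor, below the threshold, were nearest to Nep1 and Vav. Lst8, a TOR complex subunit, had 84.84 (38.5 and 46.54), below the threshold as Tor was.

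The amino acid branch, which reports nutrient supply to TOR, had thresholded peaks at 5 of 9 genes, and peaks at 4 of them in each replicate alone. The peak of Sesn, whose product restrains TOR, had 659.7 (194.2 and 461.7 in replicates 2 and 3), and its TSS was as near as that of CG46429. The peak counted for mio, which codes for a subunit of the GATOR complex, had 665.4 (258.3 and 413.1) but was nearest to papi, and that of RagC-D, which codes for a Rag GTPase, had 192.9 (57.96 and 128.9) and was nearest to CG30373. Of 4 AMPK genes, 2 had thresholded peaks, and the same 2 were reached in each replicate alone. The SNF4Agamma gene, which codes for the gamma subunit, had 7, the strongest at 137.1 (59.89 and 83.64) in an intron, over a length of 73531 bp. The peak counted for alc, the beta subunit gene, had 299.0 (101.1 and 191.7) and lay nearer to CG44286 and CG8788. AMPKalpha reached 50.71, below the threshold, with 18.72 in replicate 2 and no summit within 100 bp in replicate 3.

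Downstream of TOR, 2 of 7 output genes had thresholded peaks. The count was 4 in each replicate alone, with Myc and RpS6 added in replicate 2 and Atg13 and Mitf in replicate 3. Mitf had no peak in the pooled list. REPTOR codes for a transcription factor that is released when TOR is low, and had 6, the strongest at its promoter with 678.1 (rank 56), 264.1 in replicate 2 and 407.1 in replicate 3. Atg1, an autophagy kinase gene, had 4, the strongest of 137.1 (47.76 and 82.57) nearest to Sap130. The growth regulator gene Myc had 90.12 (40.05 and 46.39), just below the threshold. Among 11 other translation control genes, 2 had thresholded peaks. Here too the count depended on the library, with 4 in replicate 2 alone, where eIF4E1 and PEK were added, and 5 in replicate 3 alone, where 4E-T, pAbp and crc were. The strongest pooled peaks of eIF4E1 and pAbp were nearest to CG4080 and EMRE. eIF4EHP, which codes for a cap-binding repressor of translation, had 9 over a length of 45884 bp. The strongest had 775.6 (rank 42), with 252.0 and 526.3 in replicates 2 and 3, 173 bp from its TSS. The peak counted for eIF4A, the helicase gene of translation initiation (164.9, with 69.0 and 88.35), was nearest to chic, and 4E-T reached 87.54, below the threshold, with 21.32 in replicate 2 and no summit within 100 bp in replicate 3. Of 7 regulators and partners of foxo, 6 had thresholded peaks and the same 6 were reached in each replicate alone, led by HDAC4, a deacetylase gene (186.8, with 47.31 and 145.1), CRTC (180.2, with 48.95 and 135.8, nearest to CG7484) and 14-3-3zeta, which holds foxo in the cytoplasm (126.9, with no summit within 100 bp in replicate 2 and 83.93 in replicate 3).

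**Figure D4:**
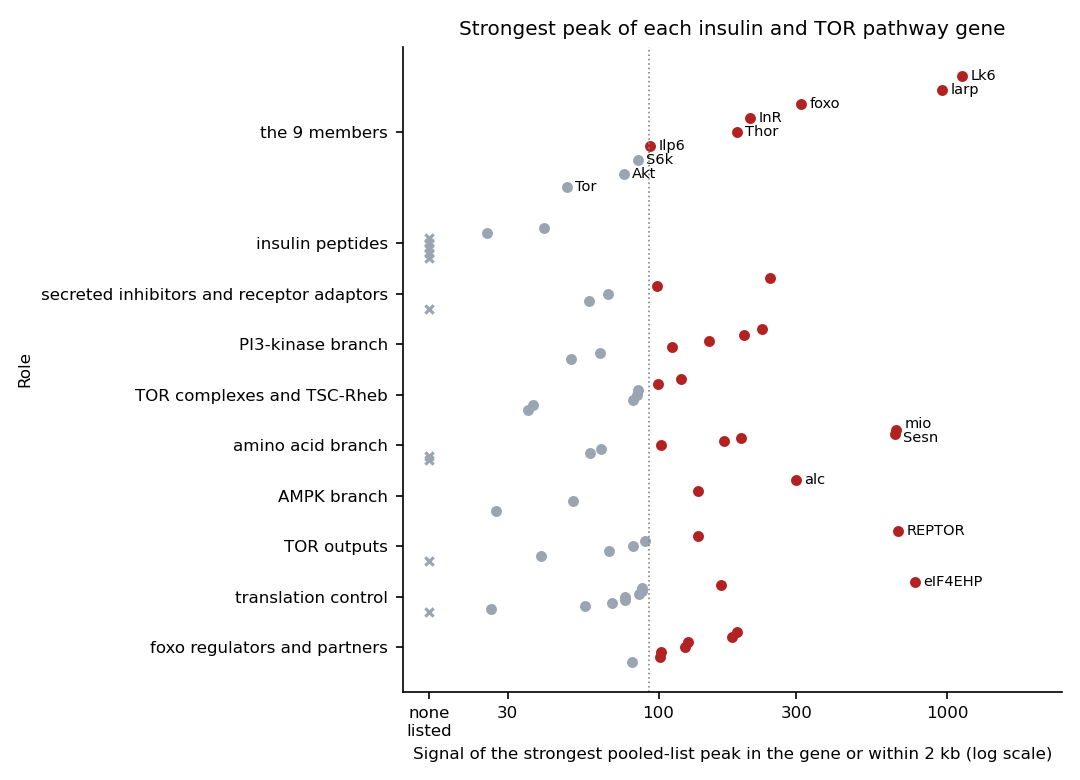
Signal of the strongest pooled-list peak (horizontal axis, log scale) in each of the 9 genes (top row) and the 63 other pathway genes by role (rows below), each point a gene. Red points are thresholded, grey points weaker, crosses mark genes with no pooled peak, and the dotted line is the lowest thresholded signal, 92.55. Insulin peptides are all grey or crosses, and eIF4EHP, REPTOR, mio and Sesn are the nearest to Lk6 and larp in strength.

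Genes whose strongest peak had replicate signals nearest to those of the 3 strongest members were looked up among the 3274 genes with a thresholded peak found in both replicates. Nearness was the distance between the log2 signals in replicates 2 and 3, which are all it covers. For Lk6 these were Tlk, at a distance of 0.0406 with 333.7 and 810.7, and CG6425, at 0.208. For larp they were CG31145, at 0.0639 with 304.6 and 627.5, and CG4455, at 0.0984. For foxo they were NaCP60E and RpL41, both at 0.0229 and both given the same peak, with 106.9 and 202.7.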

How the data were processed

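Peak lists of 2 replicates, a pooled list and a thresholded list were used on the dm6 build; the dm3 lists were not used. Each deposited row holds a peak with the signal its authors' caller gave it, which is not rescaled between lists, and a summit offset from the peak start. The threshold is labelled as IDR, without its value. For aligner, caller, settings, threshold value and depth, what was used is not given in the sources used here.

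Summits were given to protein-coding genes of Ensembl release 115 when in the body or within 2000 bp. Locations were promoter (TSS at most 500 bp away), else exon, else intron, else intergenic. Replicate matches were the strongest summit within 100 bp. Words were sought within 50 bp of summits on the RefSeq Release 6 genome. Python 3.11.15, numpy 2.4.6, scipy 1.17.1 and matplotlib 3.10.9 were used, and procedures were tested on simulated peaks. No p-value was computed, since there was 1 group.

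Named were all 9 genes, the 3 of each pathway role with the strongest peak, genes nearest to a peak, and, for the 3 strongest members, the 2 genes of most similar signal. Peaks upstream of foxo and Thor beyond 2 kb, Pi3K92E, genes overlapping a peak and pathway genes reached in 1 replicate's list were named after their values were seen. Members, lists, words and rules were all chosen with earlier results of these data known. Of 72 pathway and member symbols searched, 2 matched through a current symbol. Bounds are 1-based.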

Additional observations from a re-analysis of the deposited data

How the results depend on the processing

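Of 50 alternatives, 44 left the value within 1.5 times of that reported, or within its 95% binomial interval for a share. The 44 include the promoter share (46.7%, interval 24.8% to 69.9%) and the intron share (53.3%, 30.1% to 75.2%) at every setting tried. Those intervals are wide and treat the 15 peaks as independent, although InR and larp peaks share their genes. A promoter limit of 200 bp gave shares of 26.7% and 66.7%. One wider than 500 bp gave 66.7% and 33.3%. The split between promoter and intron thus depended on the limit. Taking the pooled list to 2 times the thresholded length gave 27 summits in place of 15 and 41 pathway genes in place of 25. Gene bodies alone gave 15 pathway genes, and the stronger 1655 peaks gave 16. A word window of 25 bp on each side left 2 peaks with a forkhead word in place of 4, and matching within 50 bp left 9 peaks found in both replicates in place of 15. Without replicate 2 the counts were 5 members, 15 summits and 29 pathway genes, and without replicate 3 they were 6, 17 and 26. Gene bodies alone lost Ilp6 and foxo, and the nearest TSS rule lost Ilp6. No paired analysis was possible because there was 1 group. The signal has no error of its own, depth is unknown, and the replicate 2 library had few peaks around Hand.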
